A study of Mus musculus with 8 samples.

Results

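The data set is an ATAC-seq study of mouse induced pluripotent stem cells, and the regions described here are those lying in autosomal stretches unusually dense in accessible chromatin. ATAC-seq reads out open DNA through the insertion of sequencing adapters by the transposase Tn5. The genome was divided into fixed windows of 100 kb, and each region of the deposited list was placed in the window of its first base. A window was called crowded if it held 20 or more regions. Of 24436 autosomal windows, 37 (0.151%) were crowded, and they held 1049 of the 74156 autosomal regions (1.41%) and of the 76872 regions in all. The windows were thus chosen by the number of regions in them. Counts, spacing and covered length in these windows follow from that choice and are given as description, without a test.

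The cells were a clonal FUCCI2 line, which carries fluorescent reporters of cell-cycle phase, grown on irradiated feeder cells in medium with FBS, LIF and 2 inhibitors that block MEK and GSK3. The series has 8 libraries, a replicate A and a replicate B for each of 4 groups. For the mitotic group, nocodazole, a drug that prevents spindle assembly, was applied at 200 ng/ml for 6 hours and the rounded cells were shaken off. Released cells were taken 1 hour or 3 hours after the drug was washed out, and asynchronous cells were left untreated. Each library was made from 50000 cells. The labels do not state whether the replicates were separate cultures, and they name total RNA as the molecule, which conflicts with the ATAC-seq protocol they also give. All 8 libraries are represented by 1 list of regions with no value per library, so the depth of the libraries is unknown and no region can be assigned to a group. Of 8 marker genes of pluripotent cells, 7 had a region within 1 kb of an end, as did 1 of 8 fibroblast genes that could mark the feeder cells and 6 of 13 in a longer fibroblast list. Over all autosomal protein-coding genes the share was 63.5% (13118 of 20665).

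Many copies of a gene family can lie side by side in a mammalian genome after repeated duplication, and short reads from near-identical copies can often be placed in more than one of them. Genes for tRNAs and for 5S rRNA are also kept in many copies and are transcribed by RNA polymerase III, and the replication-dependent histone genes, which supply histones during S phase, form compact clusters of very short genes. The chromosomes of the mouse have their centromeres at one end, next to blocks of satellite repeats.

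Sequences of several gene starts in these windows show how alike neighbouring copies are. They are RefSeq sequences of build GRCm38.p6, written 5′ to 3′ along the strand of the gene, each from the stretch running from 250 bases before to 50 bases after an annotated start (called a promoter window here). The first is the promoter window of Gm21119 at chr8:20614677-20614976 (+ strand), a predicted gene in a crowded window on chromosome 8. It was identical over all 300 bases to those of Gm15319 (chr8:20363153-20363452, − strand) and 4930467E23Rik (chr8:19729326-19729625, + strand), which lie in separate crowded windows.
Gm21119: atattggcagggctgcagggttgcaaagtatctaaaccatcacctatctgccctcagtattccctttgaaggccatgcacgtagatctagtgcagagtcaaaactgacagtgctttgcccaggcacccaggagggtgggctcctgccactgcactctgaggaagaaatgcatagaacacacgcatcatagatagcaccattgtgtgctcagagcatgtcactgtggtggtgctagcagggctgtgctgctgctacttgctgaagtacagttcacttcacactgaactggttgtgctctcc

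The next pair comes from the Speer4 family on chromosome 5, whose members encode glutamate-rich proteins of the testis. Speer4d at chr5:15618849-15619138 (+ strand) and Gm21083 at chr5:15577053-15577342 (+ strand) shared 282 of 290 aligned bases, and capitals mark the 8 that differed.
Speer4d: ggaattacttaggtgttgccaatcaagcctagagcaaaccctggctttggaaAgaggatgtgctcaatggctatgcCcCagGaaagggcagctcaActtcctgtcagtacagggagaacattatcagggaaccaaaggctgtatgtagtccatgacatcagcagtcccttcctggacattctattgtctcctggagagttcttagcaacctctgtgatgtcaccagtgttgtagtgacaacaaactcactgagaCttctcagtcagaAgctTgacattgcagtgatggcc
Gm21083: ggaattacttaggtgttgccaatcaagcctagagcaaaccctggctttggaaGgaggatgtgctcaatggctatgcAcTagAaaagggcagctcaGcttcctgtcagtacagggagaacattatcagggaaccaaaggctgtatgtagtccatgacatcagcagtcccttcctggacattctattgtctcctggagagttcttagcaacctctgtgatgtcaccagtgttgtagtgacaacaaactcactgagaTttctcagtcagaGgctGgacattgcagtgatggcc

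The third example is from the block of genes around Sp110 and Sp140, which encode nuclear body proteins of immune cells. A530032D15Rik at chr1:85109804-85110074 (- strand) and Sp140 at chr1:85600453-85600723 (+ strand) differed at 1 of 271 aligned bases, again in capitals. C130026I21Rik matched A530032D15Rik over 255 of 255 aligned bases.
A530032D15Rik: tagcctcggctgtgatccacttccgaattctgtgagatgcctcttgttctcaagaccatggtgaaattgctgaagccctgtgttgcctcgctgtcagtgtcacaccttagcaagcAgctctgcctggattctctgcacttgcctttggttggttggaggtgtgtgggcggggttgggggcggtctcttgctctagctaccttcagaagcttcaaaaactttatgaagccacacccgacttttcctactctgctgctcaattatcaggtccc
Sp140: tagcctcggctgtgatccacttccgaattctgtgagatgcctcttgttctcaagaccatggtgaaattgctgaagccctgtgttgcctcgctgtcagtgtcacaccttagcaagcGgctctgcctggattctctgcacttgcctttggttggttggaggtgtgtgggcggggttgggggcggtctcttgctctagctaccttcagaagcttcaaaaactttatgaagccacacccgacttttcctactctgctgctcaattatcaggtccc

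The next examples are histone genes, which are short and lie close together in their window. The 4 stretches below run from 180 bases before to 20 bases after the start of 1 gene each for H1, H2B, H3 and H4 in a crowded window on chromosome 13. They were chosen because each holds TATAAA within 45 bases of the start on one strand or the other. Capitals mark TATAAA (the TATA box) and CCAAT, read on both strands, so that TTTATA and ATTGG are the same letters on the opposite strand. The stretches lie at chr13:23554852-23555051 (+ strand), chr13:23571220-23571419 (+ strand), chr13:23575583-23575782 (+ strand) and chr13:23581388-23581587 (+ strand).
H1f3: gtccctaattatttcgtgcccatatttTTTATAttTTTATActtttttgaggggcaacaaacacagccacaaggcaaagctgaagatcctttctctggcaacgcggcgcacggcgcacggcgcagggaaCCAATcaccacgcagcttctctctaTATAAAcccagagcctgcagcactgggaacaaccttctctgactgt
H2bc8: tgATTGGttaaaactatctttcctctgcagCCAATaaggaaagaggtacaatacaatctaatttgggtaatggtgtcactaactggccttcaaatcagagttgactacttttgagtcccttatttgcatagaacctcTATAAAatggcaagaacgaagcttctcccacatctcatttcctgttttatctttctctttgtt
H3c4: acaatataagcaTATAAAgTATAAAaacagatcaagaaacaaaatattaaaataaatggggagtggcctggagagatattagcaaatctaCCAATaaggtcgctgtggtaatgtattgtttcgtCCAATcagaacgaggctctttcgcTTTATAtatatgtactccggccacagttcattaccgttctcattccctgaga
H4c4: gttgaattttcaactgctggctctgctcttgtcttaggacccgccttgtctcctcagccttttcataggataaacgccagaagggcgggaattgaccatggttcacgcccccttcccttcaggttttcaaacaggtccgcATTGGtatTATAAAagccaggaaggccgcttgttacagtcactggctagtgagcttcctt

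Crowded windows were the far end of a steep distribution. The median autosomal window held 2 regions (quartiles 1 and 4), the 99th percentile was 14, and 4850 windows held none. The crowded windows had a median of 25 regions, and 6 of them held more than 40. The fullest, on chromosome 11, held 58. Chromosome 8 had 9 crowded windows, chromosomes 1 and 5 had 5 each, chromosome 17 had 4 and chromosome 13 had 3. Of the 19 autosomes, 13 had at least 1 and 6 had none. A total of 13 crowded windows adjoined another one, so the windows are not independent of each other.

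**Figure D1:**
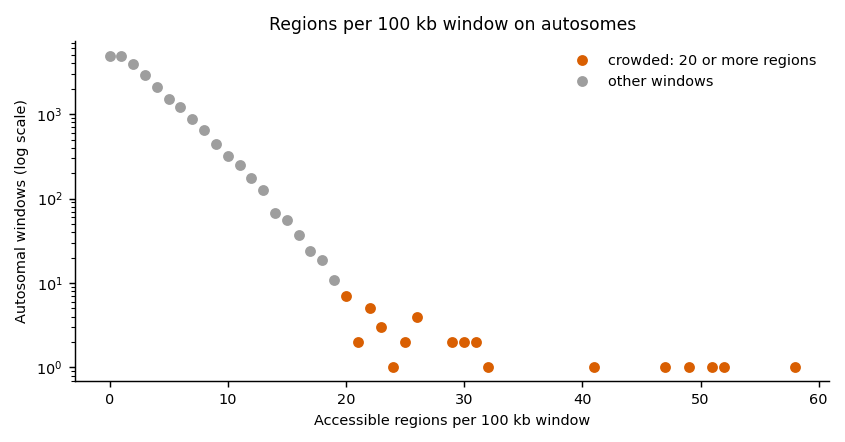
Number of autosomal 100 kb windows (y axis, log scale) against the number of accessible regions they hold (x axis), with orange points for the 37 crowded windows and grey points for the others. The counts fall steeply to 7 windows at 20 regions, and 6 windows lie apart with 41 to 58 regions.

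The threshold fell inside a continuous tail. At exactly 20 regions there were 7 windows, at exactly 19 there were 11, and 147 windows held 15 to 19. The 7 windows just inside had Cwc22, Gm14412, Ltbp4, Trim71, Syne3, Daxx with H2-K1, and Mtcl1 among their genes. Those just outside included the windows of Pisd, Rest, Nanog with Slc2a3, Bcat1, Fosb with Ercc1, Bcl3, Myo10, Pou5f1 with Cdsn, and the Pcdhg cluster. The median gap between regions was 3115 bp in the windows at 20 and 3282 bp in those at 19. Their shares at protein-coding gene ends were 12.9% (18 of 140 regions, 95% Wilson interval 8.29 to 19.4) at 20 and 25.4% (53 of 209, 19.9 to 31.7) at 19. Intervals here and below cover counting error only.

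The regions of crowded windows were narrow and closely spaced. Their median width was 224 bp (quartiles 133 and 394), against 281 bp (152 and 498) in the other autosomal windows. The median gap to the next region of the same window was 1524 bp in crowded windows and 8210 bp in the others. Gaps under 1 kb made up 40.4% of gaps in crowded windows (409 of 1012) and 16.6% in the others. Crowded windows were covered by regions over 8.72% of their length, with a range of 4.15% to 27.6%, and the other autosomal windows over 1.09%. Neither very wide nor very small regions were common. Regions of 1 kb or wider made up 2.96% in crowded windows (31 regions, the widest 1813 bp) and 3.75% elsewhere. Regions at the smallest width in the list, 73 bp, made up 4.77% (50 of 1049, 3.63 to 6.23), against 3.95% in the other windows and 3.96% of all autosomal regions.

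**Figure D2:**
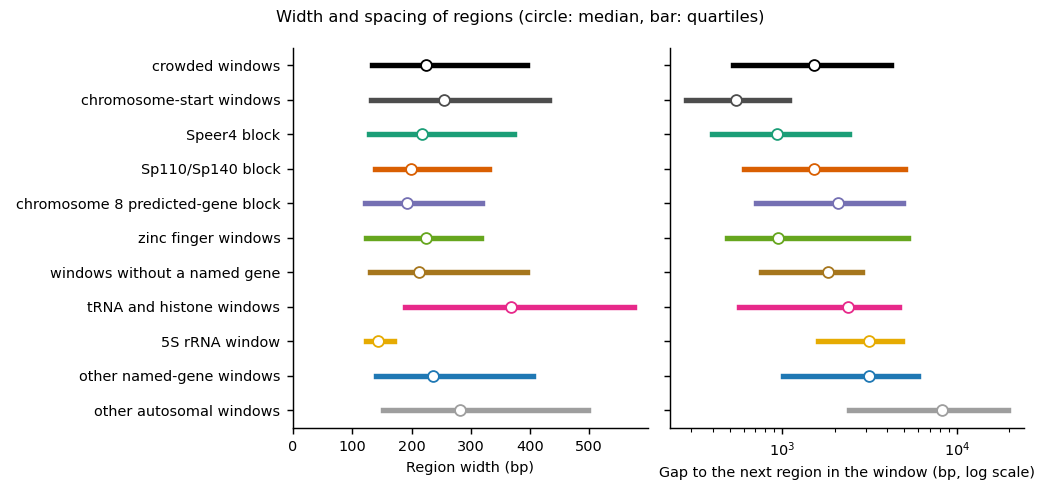
Width of regions (left, bp) and gap to the next region of the same window (right, bp, log scale) for all crowded windows, for 9 groups of them by gene content and for the other autosomal windows. Circles are medians and bars run between the quartiles. The tRNA and histone windows have the widest regions, with a median of 368.5 bp, and the chromosome-start windows the shortest gaps, with a median of 541.5 bp.

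Set side by side without a test, the share of regions at protein-coding gene ends was lower in crowded windows than in the others, and the share at ends of genes of any type was nearly equal. Within 1 kb of a protein-coding gene end lay 10.3% of them (108 of 1049, 8.6 to 12.3), against 20.7% in the other autosomal windows and 20.6% of all autosomal regions. Within 1 kb of an end of a gene of any type lay 27.0% (283 regions, 24.4 to 29.7), against 26.7% in the other windows. A promoter window of a protein-coding or lncRNA gene was touched by 5.72% (60 regions, 4.47 to 7.29), against 14.2% in the other windows and 14.1% of all autosomal regions. The shares of 14.2% and 14.1% include regions on chromosome 18, where no promoter was used, so they are too low to an unknown extent. The share inside protein-coding genes was 34.0% in crowded windows and 54.6% in the others. No gene was touched by 44.4% of the regions in crowded windows (466), against 36.6% in the others. The lower share at protein-coding ends depended on the threshold: in windows with 15 to 19 regions it was 26.4% (632 of 2391).

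The windows fell into groups of very different gene content. By a rule that counted genes with the same symbol stem, 5 windows were tRNA clusters, 1 a histone cluster, 1 a multi-copy family (the 5S rRNA genes), and 30 were put under other genes. That rule could not see copies with unrelated symbols, such as Gm21119 and Gm15319, so the windows were regrouped into 9 sets by position and gene content after these values had been seen. Windows of copied families, predicted genes, no named gene and chromosome starts made up 21 of the 37 and held 701 of the 1049 regions. Together they had 5.71% of regions at protein-coding gene ends (40 regions, 4.22 to 7.68) and 13.6% at ends of any gene. All 5 crowded windows without a protein-coding gene were among these 21. A low share at such ends thus follows in part from the grouping, and nothing is read from it.

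**Figure D3:**
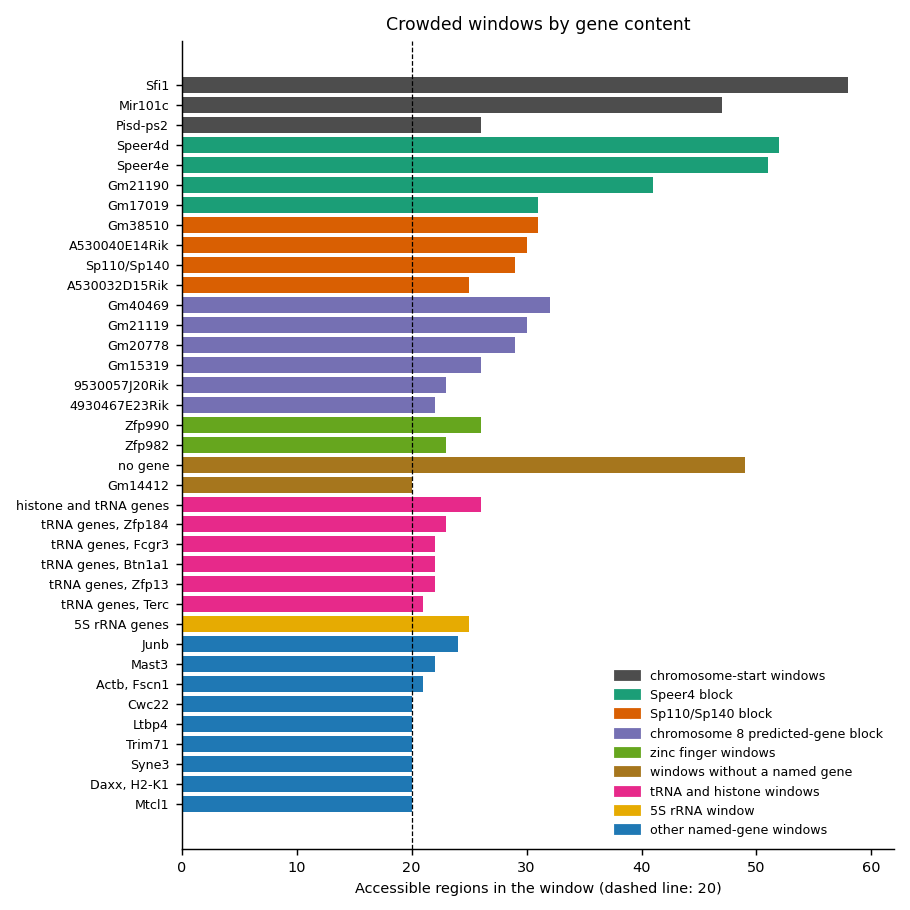
Number of accessible regions in each of the 37 crowded windows (x axis), grouped and coloured by gene content, with the dashed line at 20. The chromosome-start, Speer4 and gene-free windows hold the 6 highest counts, from 41 to 58, and the other named-gene windows lie between 20 and 24.

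The Speer4 family on chromosome 5 had 4 windows, in 2 adjoining pairs, with 175 regions in all: 51 in the window of Speer4e, 31 in that of Gm17019, 41 in that of Gm21190 and 52 in that of Speer4d. Their regions had a median width of 217 bp and a median gap of 936 bp, and 52.0% of gaps were under 1 kb. Most regions lay outside the protein-coding genes of the block, which are short, at 4067 to 4845 bp each in windows of 100 kb. Speer4d, Speer4e, Gm9758 and Gm21190 were each touched by 3 regions, Gm10354 and Gm21083 by 1 each, and Gm17019 by none of the 31 in its window. More regions fell in long noncoding and pseudogene annotations, with 17 in Speer8-ps1, 14 of the Gm21190 window in Gm30613, 13 in Gm30417 and 9 in Speer4cos. Those 4 annotations are longer, at 24079 to 33887 bp, and the counts were not set against length. The counts also overlap, because Speer4d lies inside Gm30417, Gm21083 lies inside Gm30613, and Gm10354 overlaps Speer8-ps1. At protein-coding gene ends lay 6.86% of the block's regions (12 of 175, 3.97 to 11.6), below the 20.6% of all autosomal regions.

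The starts of the Speer4 genes were nearly the same in sequence. The promoter windows of 21 other genes on chromosome 5 matched that of Speer4d at 90% identity or more over at least 240 bases. Among these 22 genes, a region touched the promoter windows of 3, namely Gm21083, Gm21190 and Speer4c. Over all autosomal genes with a promoter sequence, 59.1% of protein-coding genes were touched there, and 44.9% of protein-coding and lncRNA genes together. Of the 7 in crowded windows, 2 were touched. Gm21083, printed above, was touched by a region of 86 bp, while the nearest region to the promoter window of Speer4d lay 2278 bp away. Over the 7 genes in crowded windows the median distance to the nearest region was 307 bp and the largest 2278 bp. Over the 15 outside them the median was 7350 bp, with a range of 0 to 43186 bp. Crowded windows were chosen for holding many regions, so shorter distances there follow in part from that choice, and nothing is read from them. The sources used here do not say how reads from such copies were placed, and the part of read placement in these counts was not tested.

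The Sp110/Sp140 block on chromosome 1 had 4 windows with 115 regions, with a median width of 199 bp (quartiles 138 and 331.5) and a median gap of 1523 bp. Unlike the Speer4 block, most of its regions lay inside protein-coding genes (72.2%, 63.4 to 79.5), against 8% in the Speer4 block. Here the genes are long. The predicted gene Gm38510 spans 153815 bp and was touched by all 31 regions of one window, 19 of which also lay in C130026I21Rik. In the window of Sp110 and Sp140, 17 of 29 regions touched Gm7592, 10 touched Sp110 and 4 touched Sp140. The 5 genes of the block with a RefSeq promoter sequence all had a promoter window touched, against the 44.9% of all such genes. Of these 5, 3 had a copy elsewhere. The matching promoter windows of A530032D15Rik, C130026I21Rik and Sp140 were touched in each case. A530032D15Rik was touched there by a region of 530 bp, which overlapped part of the printed stretch, and Sp140 by one of 1019 bp, which covered it, the second lying just outside the crowded window. Gm7609 was touched, and its copy Sp100, a nuclear body gene outside the crowded windows, had its nearest region 327 bp away.

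A block of predicted genes on chromosome 8 (from base 19700000 to 20699999) held 6 crowded windows with 162 regions: 32, 30, 29, 26, 23 and 22. It had the smallest median width among the blocks of several windows, 192.5 bp, with a median gap of 2086.5 bp. The 2 genes touched most were 9530057J20Rik, with 15 of 23 regions of its window, and 4930467E23Rik, with 12 of 22. The pseudogene Gm20778 had 10 of 29. Of the 3 genes with identical promoter windows, Gm21119 was touched there by a region of 178 bp (chr8:20614568-20614745). Gm15319 and 4930467E23Rik were not, and their nearest regions lay 761 and 163 bp away. A region thus touched the same 300 bases at 1 of 3 positions, against 59.1% of all autosomal protein-coding genes with a promoter sequence. That region began before the promoter window and covered only its first part, from base 20614677 to 20614745. The part of read placement among these identical copies was not tested.

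Clusters of zinc finger genes, which encode DNA-binding proteins of a large mouse family, gave 2 windows on chromosome 4 with 49 regions. In one, Zfp990 was touched by 8 of 26 regions and Gm13212 by 6. In the other, Zfp982 was touched by 8 of 23. Their median width was 225 bp and their median gap 944 bp, with 12.2% of regions at protein-coding gene ends (5.73 to 24.2). Of Zfp982 and the 6 genes with a matching promoter window, 4 had a promoter window touched, among them Rex2 and Zfp600 outside the crowded windows. A gene can have several promoter windows and was counted if any of them was touched. For Zfp982 the region was chr4:147492299-147492381. No region touched its promoter window at chr4:147442864-147443163. The count of 4 is near the 59.1% of all autosomal protein-coding genes with a promoter sequence, which is also a share of genes.

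Over all protein-coding genes with a RefSeq promoter sequence, 15 of 71 in crowded windows (21.1%, 13.2 to 32.0) had another gene's promoter window matching at 90% identity or more. Elsewhere on the autosomes it was 1152 of 16386 (7.03%). At 95% identity, a setting added after the data were seen, 13 of the 71 remained above the limit, and the 2 that did not were those of the zinc finger windows. The copies were concentrated by block: 7 of 9 genes in the Speer4 block, 3 of 5 in the Sp110/Sp140 block, 3 of 7 on chromosome 8, 2 of 3 in the zinc finger windows (0 at 95% identity), 2 of 36 in the tRNA and histone windows and 0 of 37 in the other named-gene windows. These counts per block include lncRNA genes.

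Near the starts of chromosomes, 3 windows beginning within 3.1 Mb of the first base held 131 regions, with the shortest gaps of any block. Their median gap was 541.5 bp, and 72.7% of gaps were under 1 kb. They also had the highest share of regions of 1 kb or wider, 8.40% (11 regions). The window on chromosome 11 held 58 regions, 43 of them in Sfi1, which encodes a centrosomal protein that binds centrins, and 6 in Pisd-ps1, a pseudogene of the phosphatidylserine decarboxylase gene Pisd. It held the widest region of any crowded window, of 1813 bp at chr11:3181666-3183478. Here regions covered 27.6% of the window. The window on chromosome 17 held 26 regions, of which 4 touched Pisd-ps2 and 22 touched no gene. Pisd itself, on chromosome 5, lay in a window with 19 regions, 8 of which touched it.

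The window at the start of chromosome 9 held 47 regions and a single annotated gene, Mir101c. None of the regions touched it, and the nearest was 1727 bp from its mature sequence. The regions had a median gap of 392.5 bp, and spanned 67.9 kb with one gap of 31305 bp. The mature miR-101c, at chr9:3038680-3038698 on the − strand, is shown with its seed (bases 2 to 8) in capitals. No other mouse miRNA in the RefSeq table shares that seed.
mmu-miR-101c: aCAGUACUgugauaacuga

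**Figure D4:**
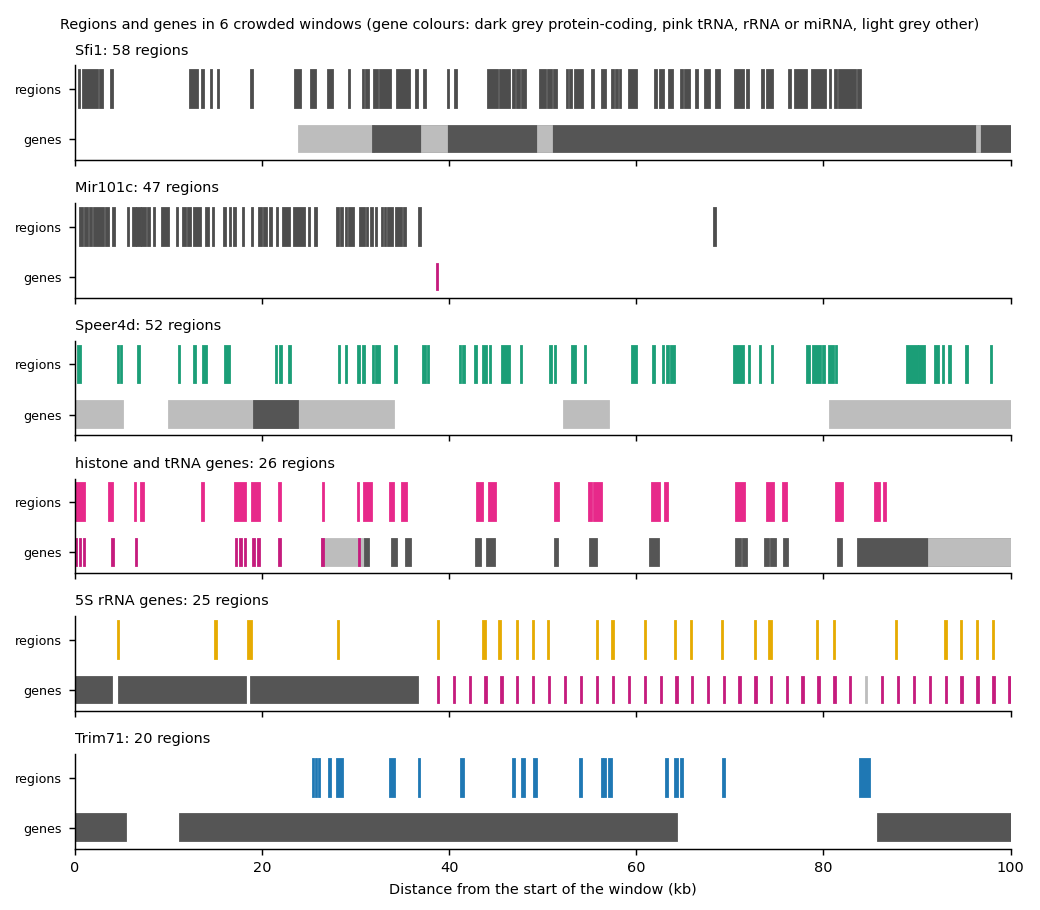
Positions of accessible regions (upper track) and gene spans (lower track) in 6 crowded windows, with distance from the start of the window in kb on the x axis. Dark grey spans are protein-coding genes, pink ones tRNA, rRNA or miRNA genes and light grey ones other genes. Regions crowd Sfi1, lie away from Mir101c, follow the short histone and tRNA genes, stand at many of the evenly spaced 5S rRNA genes, and cluster in Trim71.

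In 2 windows the regions had no named gene. The window at chr6:114500000-114599999 held 49 regions and no annotated gene, with a median width of 188 bp and a median gap of 1672 bp. Its neighbours held 7 and 15 regions. The window at chr2:177300000-177399999 held 20, of which 18 touched the pseudogene Gm14412. None of the 69 regions of both windows lay at a protein-coding gene end. Neither window holds a protein-coding gene, so this follows from the grouping. The repeat content of the gene-free and chromosome-start windows was not analysed here, so whether they hold satellite-like sequence was not tested.

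In contrast, the 6 tRNA and histone windows had regions mostly within 1 kb of gene ends. These windows were grouped for holding many short genes, so a high share at ends of any gene follows in part from the grouping. Within 1 kb of an end of any gene lay 82.4% of their 136 regions (112, 75.1 to 87.8), against 26.7% of all autosomal regions. At ends of protein-coding genes it was 21.3% (29 regions, 15.3 to 28.9), close to the 20.6% of all autosomal regions. Their median width, 368.5 bp, was the largest of the blocks. Of the 94 tRNA genes in crowded windows, 79 were touched by a region (84.0%, 75.3 to 90.1), against 184 of 297 elsewhere (62%, 56.3 to 67.3) and 67.3% of all 391. In 67 of the 79 cases the tRNA gene, with a median length of 73 bp, lay wholly inside the region. Regions at tRNA genes were narrower here, with a median of 383 bp (quartiles 259 and 576), than at tRNA genes elsewhere, with 599 bp (329 and 870).

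**Figure D5:**
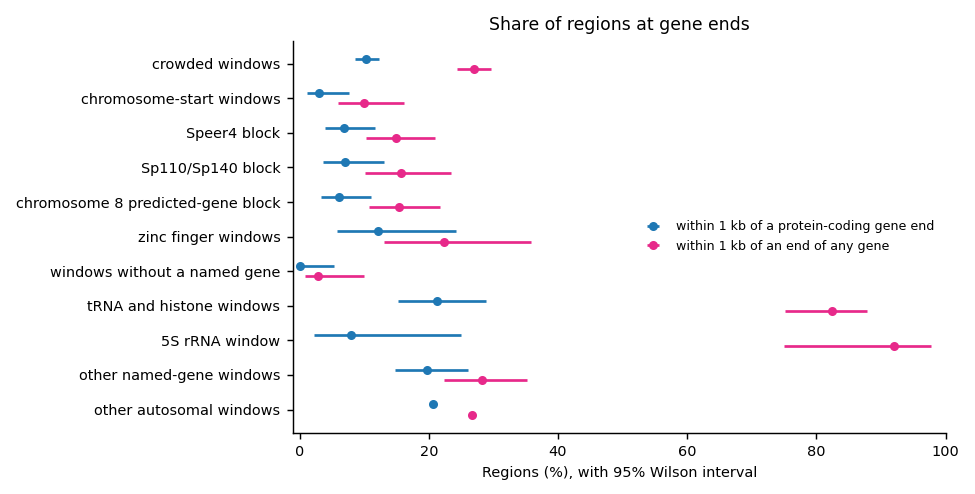
Share of regions (%, x axis) within 1 kb of a protein-coding gene end (blue) and of an end of a gene of any type (pink), for all crowded windows, their 9 groups and the other autosomal windows, with 95% Wilson intervals as bars. The tRNA and histone windows and the 5S rRNA window reach 82.4% and 92.0% for genes of any type, and no other group passes 28.3%. Both were grouped for holding many short genes, so high shares follow in part from the grouping. The 5S genes lie 1695 bp apart from start to start (median), so any region between neighbours is within 1 kb of an end.

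The tRNA windows differed in which tRNAs they carried. The window of Fcgr3 on chromosome 1, an Fc receptor gene, held 20 tRNA genes with 6 anticodons, and 18 were touched. Its last 15 tRNA genes repeated the order Glu (CTC), Gly (TCC), Asp (GTC), Leu (CAG) and Gly (GCC) 3 times, and the 2 untouched genes were both Leu (CAG). The window of the butyrophilin gene Btn1a1 on chromosome 13 held 22 tRNA genes with 13 anticodons, 6 of them Tyr (GTA), and 16 were touched. The window of Zfp184 on the same chromosome held 19, of which 16 were touched. The window of Zfp13 on chromosome 17 held 7, all touched. On chromosome 3, 9 of 13 tRNA genes were touched: all 4 Asn (GTT) genes, but 2 of 5 His (GTG) genes. That window also held Terc, the RNA template of telomerase, and Rnu1b6, a U1 small nuclear RNA gene, each touched by 1 region. Over all crowded windows, 4 of 7 snRNA genes were touched (57.1%, 25 to 84.2), against 5.41% of those elsewhere and 5.8% on all autosomes. All 4 lay in this chromosome 3 window.

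The window of the histone cluster at chr13:23500000-23599999 held 26 regions, 15 replication-dependent histone genes and 13 tRNA genes. Every one of these 28 genes was touched by a region. Among histone genes elsewhere 46 of 47 were touched, and 98.4% of all 62 on autosomes, so touched histone genes are not particular to this window. The 16 regions at these histone genes had a median width of 646 bp (quartiles 471.8 and 824.5), against 770 bp at histone genes elsewhere. One of the 16 started beyond the window, because H2bc6 spans 37455 bp. H1f3, H2bc8, H3c4 and H4c4 of the printed stretches were touched at their starts by regions of 395, 976, 423 and 715 bp. In the printed stretches, TATAAA began 26 bases before the start of H1f3, 43 before that of H2bc8, 32 before that of H3c4 (opposite strand) and 32 before that of H4c4.

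Counted over whole promoter windows and both strands, TATAAA was present in 8 of 14 histone promoters in crowded windows (57.1%), in 34 of 58 promoters of all histone genes (58.6%), in 12 of 104 other promoters in crowded windows (11.5%) and in 13.6% of all 32851 promoters in the table. CCAAT was present in 12 of the 14 histone promoters (85.7%), in 50 of the 58 of all histone genes (86.2%), in 45 of the 104 others (43.3%) and in 37.4% of all. The shares in crowded windows were thus close to those of histone genes as a whole. The neighbouring H4c8 held neither. A match of these letters is a description of the sequence and not evidence of a bound factor.

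The 5S rRNA window on chromosome 8 had the narrowest regions. The part of the 5S array in this window held 36 rRNA genes of 121 bp (median) at a median distance of 1695 bp from start to start (quartiles 1686 and 1708), from base 123538784 to 123599979. Within it lay 21 of the 25 regions of the window, with a median width of 141 bp. A gene was touched by 18 of these regions, 1 gene each, so that 18 of the 36 genes were touched (50%, 34.5 to 65.5). Elsewhere 11 of 25 rRNA genes were touched (44.0%), and on all autosomes 47.5%. The window had no gap under 1 kb, and its median width of 143 bp was the lowest of all crowded windows. The part of read placement among the copies was not tested.

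The remaining 9 windows, called other named-gene windows, held 187 regions with a median width of 236 bp and a median gap of 3119 bp. At protein-coding gene ends lay 19.8% (37 regions, 14.7 to 26.1), close to the 20.6% of all autosomal regions, and 60.4% lay in protein-coding genes. A promoter window was touched in 29 of the 37 genes that have one, lncRNA genes included. Over all autosomal protein-coding and lncRNA genes with one, the share was 44.9%. None of the 37 had a copy at 90% identity. Actb, H2-K1, Syne3 and Mast3 were not among the genes compared in this way.

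Among these windows, that of Junb on chromosome 8 held most, with 24 regions. Junb, an AP-1 subunit induced early after stimulation, was touched by 1 of them, as were Klf1, an erythroid transcription factor, and Prdx2, a peroxide-reducing enzyme. The kinase gene Mast1 was touched by 8 and Hook2, a linker of cargo to microtubule motors, by 6. The window of Mast3, also a kinase gene, held 22 regions, of which 4 touched no gene. The other 18 were spread over 7 protein-coding genes, with 4 in Mast3 and 3 each in Il12rb1, Kcnn1, Ccdc124 and Slc5a5.

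The window of Actb (β-actin) and Fscn1 (fascin, which bundles actin) on chromosome 5 held 21 regions, 16 of which touched no gene. The widest, of 1551 bp at chr5:142905294-142906844, lay inside Actb, and 3 lay in Fscn1. Trim71, which encodes an RNA-binding ubiquitin ligase known for its role in early development, was touched by 17 of the 20 regions of its window, with a median gap of 973 bp. No region of the window touched its neighbours Ccr4 and Cnot10. Ltbp4, a binding protein of latent TGF-β, was touched by 9 of 20 and the spectrin gene Sptbn4 by 6. Cwc22, a splicing factor gene, was touched by 9 of 20, and Mtcl1, which encodes a microtubule crosslinking protein, by 7 of 20.

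The window of Daxx, a chaperone of histone H3.3, and H2-K1, a class I histocompatibility gene, was the densest in genes of these 9. It held 11 protein-coding genes, 9 of its 20 regions lay at an end of one, and Daxx was touched by 1 and H2-K1 by 2. Tapbp, which loads peptides on class I molecules, was touched by 3. In the window of Syne3, a nuclear envelope protein gene, the lncRNA Gm31829 was touched by 9 of 20 regions and Syne3 by 3.

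The core pluripotency genes listed for this comparison were not among the genes of crowded windows. None of 23 core pluripotency genes, 15 signalling genes, 8 mitotic genes and 13 fibroblast genes touched one, while 1 of 12 immediate early genes (Junb) and 1 of 10 housekeeping genes (Actb) did. Over all autosomal protein-coding genes, 92 of 20665 touched a crowded window, a share at which short lists can hold none. Of the 23 core pluripotency genes, 21 had a region within 1 kb of an end (63.5% over all autosomal protein-coding genes). The windows of Nanog and Pou5f1 fell just short of the threshold at 19. These counts are for whole windows. In that of Nanog, 13 of the 19 regions touched Slc2a3. In that of Pou5f1, the protein-coding gene touched most was Cdsn, by 4 regions.

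For the gene types counted here, the share of genes touched was higher inside crowded windows than outside them. The windows were chosen for holding many regions, so nothing is read from that difference. For protein-coding genes it was 87 of 92 (94.6%, 87.9 to 97.7) in crowded windows and 72.9% elsewhere. For lncRNA genes it was 31 of 41 (75.6%) and 41.5%, and for pseudogenes 21 of 42 (50%) and 6.82%. Promoter windows of protein-coding genes were touched in 54 of 71 cases in crowded windows (76.1%, 65.0 to 84.5) and in 59% elsewhere. In the Speer4 block 2 of 9 promoter windows were touched and in the chromosome 8 block 1 of 7, lncRNA genes included. Over all autosomal protein-coding and lncRNA genes with a promoter sequence the share was 44.9%. These 2 blocks were picked after the values were seen.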

How the data were processed

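The authors deposited 1 list of regions for the 8 libraries, with a chromosome, a start and an end in base pairs and no value per library. Per the submitters' processing notes, the tools included MACS2 (version 2.1.1), Bowtie2, cutadapt, Picard, SAMtools and bedtools, and coordinates refer to mm10, that is GRCm38. Parameters, blacklists, the handling of reads with several placements and the merging of libraries are not stated in those notes. Coordinates are from 1. Regions were set against RefSeq gene spans and promoter sequences of GRCm38.p6 (49943 genes and 32851 promoters of 27025 symbols; promoters on chromosome 18 were not used here). A gene was touched if a region shared at least 1 base with it. Where a gene had several promoter windows, a region at any of them counted. Promoter windows were compared with blastn 2.17.0, same strand, other symbol. Python 3.11.15, numpy 2.4.6, pandas 2.3.3, scipy 1.17.1 and matplotlib 3.10.9 were used, and the overlap code was tested on simulated data. No test was run: with no value per library, the planned comparisons of mitotic, released and asynchronous cells could not be made. The windows, gene lists and named genes were chosen with earlier results of these data known. Genes were named from the 10 fullest windows, the fullest of each content class, the context lists and the windows at 20 and 19. Other genes, among them those of the remaining windows and of the promoter comparison, and the printed sequences were chosen after their values were seen.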

Additional observations from a re-analysis of the deposited data

How the results depend on the processing

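Of 55 recomputed values over 13 settings, 25 stayed within their counting interval (or within 1.5 times for a count) and 30 moved. With 15 or more regions per window there were 184 windows and 3440 regions, with a median width of 246.5 bp, a median gap of 2716 bp and 21.5% at protein-coding gene ends. With 25 or more there were 19 windows and 664 regions, 207 bp, 1201 bp and 7.53%. Windows of 50 kb with 10 regions gave 219 windows, 2726 regions, a median gap of 2004 bp and 18% at those ends. Windows of 200 kb with 40 regions gave 14 windows, 1244 bp and 7.8%. Leaving out regions under 150 bp gave 13 windows, 358 regions and a median width of 304 bp. Merging regions under 1 kb apart gave 11 windows, 257 regions, 324 bp, a median gap of 2696.5 bp, 7.39% at those ends and 2.33% at the minimum width. The share at those ends was 7.05% within 500 bp, 15.8% within 2 kb and 27% for genes of every type. The median gap was 1786 bp without the chromosome-start windows, an alternative chosen after seeing the data. A grid moved by 50 kb moved no value past its interval, but 66.8% of the 1049 regions and 63% of the 1112 in the moved grid were shared. No paired analysis was possible because the list holds no value per library. The planned replicate block and leave-one-out settings were not run for that reason, and the depth is unknown.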

Other observations

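Outside the autosomes, no window on the X held 20 or more regions, and 1 window on the Y did.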
